A study of Mus musculus with 10 samples.

Results

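The genes described here are 42 interferon-stimulated genes, a set of transcripts that cells raise when interferon binds its receptors, measured in pancreatic islets of mice heterozygous for Men1 and of their wildtype littermates. They were chosen by symbol, and all probe sets that the platform annotation gives to one of these symbols alone were taken. Of the 42 genes, 39 have such a probe set, with 62 probe sets among them, and 30 are called measured, because a probe set of theirs passed 4 on the log2 scale in 5 or more of the 10 arrays. The whole array names 18193 genes in this way, of which 10538 were measured. Isg15 and Gbp4 are covered only by a probe set that carries another symbol too, and Ifi44 is unnamed here, so no value is given for these 3.

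The study measured islets from 5 heterozygous and 5 wildtype female mice, all aged 5 weeks and recorded as C57 on a 129 background, with the islets of each mouse (about 100) pooled into 1 RNA sample and run on 1 short-oligonucleotide array after 2 rounds of amplification. The labels give the heterozygous genotype and not the allele. If the genotype was inherited, it is carried by every cell of the animal. Values are on the log2 scale, so that a difference of 1 is a 2-fold change, and differences are heterozygous minus wildtype. Whole islets hold endocrine, vascular, stromal and immune cells, and in such bulk RNA fewer cells of a type and less RNA per cell cannot be told apart. The endocrine list had 10 of its 11 genes named and all 10 measured, with a mean log2 level of 14.17 ± 0.25 in heterozygous and 14.22 ± 0.26 in wildtype islets (SD, n = 5 each). Men1, the targeted gene, averaged 6.42 ± 0.30 in the heterozygous mice and 6.89 ± 0.39 in their wildtype littermates (SD, n = 5 each), a difference of -0.47 with a limma p of 0.0396 and an adjusted p of 0.9999. The labels do not say whether its probe set lies in the altered stretch.

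Type I interferons signal through a receptor pair and the kinases JAK1 and TYK2 to a complex that holds STAT2 and IRF9 and binds a DNA element called the ISRE. Interferon gamma signals through JAK1 and JAK2 and acts on a different element, the GAS. The induced proteins sense viral RNA, degrade or sequester it, attack the membranes that enclose microbes, and recruit lymphocytes, and many of them are also made at a low level without infection. In islets interferon signalling is best known from autoimmune diabetes, where beta cells show it.

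The RefSeq promoter table, which covers 250 bases before to 50 bases after a gene's start, had an entry for 31 of the 42 genes. The core of the ISRE, GAAA followed by any 2 bases and another GAAA, was searched on both strands, and 18 of the 31 genes (58.1%) held it in at least 1 entry, against 3.99% of all 27025 genes in the table and 3.44% of its 32851 promoters. The core of the GAS, TTCNNNGAA, which reads the same on both strands, stood in 9 of the 31 (29.0%), against 9.55% of all genes and 8.30% of all promoters. A match describes the letters in this window only. Shown here are promoters of the 4 genes with an entry that varied most closely with the other members from mouse to mouse. Those of the 2 that did so least follow. ISRE cores of either strand are in capitals, and none of these entries holds a GAS core. For a gene with several entries (Trim30a and Gbp3 with 2, Adar with 3), the one with most ISRE cores is shown.

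Trim30a promoter (GRCm38.p6 chr7:104465144-104465443, minus strand): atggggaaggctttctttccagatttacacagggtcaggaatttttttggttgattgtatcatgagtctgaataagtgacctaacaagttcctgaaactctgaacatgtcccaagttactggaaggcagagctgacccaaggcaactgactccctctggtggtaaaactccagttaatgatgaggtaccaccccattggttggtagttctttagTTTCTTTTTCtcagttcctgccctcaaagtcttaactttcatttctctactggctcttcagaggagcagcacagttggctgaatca
Gbp3 promoter (GRCm38.p6 chr3:142559794-142560093, plus strand): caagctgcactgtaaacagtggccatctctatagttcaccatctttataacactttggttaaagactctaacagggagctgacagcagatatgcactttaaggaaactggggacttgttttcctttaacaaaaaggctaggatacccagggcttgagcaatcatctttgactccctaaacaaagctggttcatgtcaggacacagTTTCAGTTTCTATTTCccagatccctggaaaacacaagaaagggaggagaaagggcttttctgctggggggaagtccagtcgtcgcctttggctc
Oasl2 promoter (GRCm38.p6 chr5:114896684-114896983, plus strand): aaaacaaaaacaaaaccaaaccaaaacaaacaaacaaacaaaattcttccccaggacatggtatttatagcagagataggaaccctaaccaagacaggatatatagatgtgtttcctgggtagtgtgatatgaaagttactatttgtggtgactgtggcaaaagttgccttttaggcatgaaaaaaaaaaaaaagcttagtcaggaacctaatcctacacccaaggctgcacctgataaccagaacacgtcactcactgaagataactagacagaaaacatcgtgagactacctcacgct
Ifit1 promoter (GRCm38.p6 chr19:34640639-34640938, plus strand): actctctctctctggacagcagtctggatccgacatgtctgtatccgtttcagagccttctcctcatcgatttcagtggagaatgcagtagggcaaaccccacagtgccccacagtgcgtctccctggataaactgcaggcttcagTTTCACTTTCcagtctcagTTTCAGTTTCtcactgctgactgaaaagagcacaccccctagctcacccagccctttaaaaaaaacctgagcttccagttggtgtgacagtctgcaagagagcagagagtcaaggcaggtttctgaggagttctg
Adar promoter (GRCm38.p6 chr3:89714772-89715071, plus strand): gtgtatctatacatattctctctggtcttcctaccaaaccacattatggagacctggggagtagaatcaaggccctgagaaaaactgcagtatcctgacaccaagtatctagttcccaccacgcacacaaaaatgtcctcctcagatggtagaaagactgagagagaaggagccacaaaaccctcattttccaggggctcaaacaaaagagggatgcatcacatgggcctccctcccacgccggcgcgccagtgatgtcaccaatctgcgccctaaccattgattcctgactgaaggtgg
Ifitm2 promoter (GRCm38.p6 chr7:140955912-140956211, minus strand): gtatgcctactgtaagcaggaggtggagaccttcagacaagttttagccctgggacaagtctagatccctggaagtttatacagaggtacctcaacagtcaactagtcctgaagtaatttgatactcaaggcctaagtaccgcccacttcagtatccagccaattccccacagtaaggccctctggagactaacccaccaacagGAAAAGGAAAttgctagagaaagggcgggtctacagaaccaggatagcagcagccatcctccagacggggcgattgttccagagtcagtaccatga

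The single Trim30a match began 36 bases before the start, and the 2 overlapping Gbp3 matches began 45 and 39 bases before it. Ifit1 had a pair of separate matches, at 104 and 85 bases. Oasl2 and the Adar entry had none, and Ifitm2 had 1, at 46 bases, although its levels did not follow those of the other members, as described further on.

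The interferon transcripts with a probe set were near the bottom of the scale in these islets, and interferon protein was not measured. On this array a log2 value of 4 is taken as the floor of measurement. All 7 interferon genes with a single-symbol probe set (Ifnb1, Ifng and 5 alpha genes, of 11 listed) lay below the floor, from 2.17 to 3.05 in heterozygous and 2.30 to 2.86 in wildtype islets. Of 16 genes listed for the receptors and the JAK-STAT pathway, 12 were measured, with a list mean of 7.95 ± 0.05 in heterozygous and 7.95 ± 0.13 in wildtype islets. Ptpn6, a phosphatase that restrains cytokine signalling, had the smallest p of this list, at 7.32 in heterozygous and 6.78 in wildtype islets (difference 0.55, SE 0.15, limma p 0.00470, adjusted p 0.9999). Ifngr1, a receptor chain for interferon gamma, came next (-0.30, SE 0.14). Of the 16 genes listed for nucleic acid sensing, 9 were measured with a list mean of 6.58 ± 0.06 in heterozygous and 6.57 ± 0.19 in wildtype islets, and Irf3, which switches on interferon genes (-0.23, SE 0.15), and its kinase gene Ikbke (0.23, SE 0.15) had the smallest p. Of 6 other interferon regulatory factors listed, only Irf3 and Irf8 (0.41, SE 0.49) were measured. In these lists 0 genes passed the adjusted threshold.

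Of the 42 genes, 9 did not pass the filter with any of their 14 probe sets, which read from 1.86 to 3.95 in heterozygous and from 1.84 to 4.06 in wildtype islets. These were the RNA sensors Ddx58 and Dhx58, the nucleic acid sensor Zbp1, the 2'-5' oligoadenylate synthetase genes Oas2 and Oas3 with the related Oasl1, the antiviral GTPase genes Mx1 and Mx2, and Irf7, the regulator that amplifies interferon production. Irf7 read 3.27, 3.84, 3.26, 3.29 and 3.28 in heterozygous mice 1 to 5, against 3.29, 3.27, 3.53, 3.24 and 3.33 in wildtype mice 1 to 5. Heterozygous mouse 2 was the highest and the others lay together, all under the floor, so no fold change is drawn from these probe sets.

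Between genotypes no member passed the test. With limma, 0 of the 30 measured members had an adjusted p under 0.05, where 0% of the 18567 probe sets tested did, and 2 members, Ifit2 and Ifitm1, had an unadjusted p under 0.05, where 4.09% of all probe sets did. The groups did not overlap in 1 member, Ifitm1, against 0.700% of all probe sets, and against 0.172% that lay apart with heterozygous islets lower. A single array stood far from its group by Dixon's test in 2 members among heterozygous mice (Stat2 and Ifitm1), against 10.9% of all probe sets, and in 1 among wildtype mice (Rsad2), against 10.2%. The mean was lower in heterozygous islets for 21 of 30 members, against 43.6% of all probe sets, and the median member difference was -0.086, against 0.022 over all probe sets. That count depended on single mice. Without heterozygous mouse 3 it was 14 of 30 with a median of 0.012, against 39.3% and 0.040 over all probe sets. Without heterozygous mouse 1 it was 17 with -0.021, against 45.1% and 0.017. Without both mice, a choice made for their low values, it was 7 of 30 with a median of 0.156, against 40.3% of all probe sets. Distances from centre to edge of the members' 95% intervals had a median of 0.45, against 0.33 over all probe sets.

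**Figure D1:**
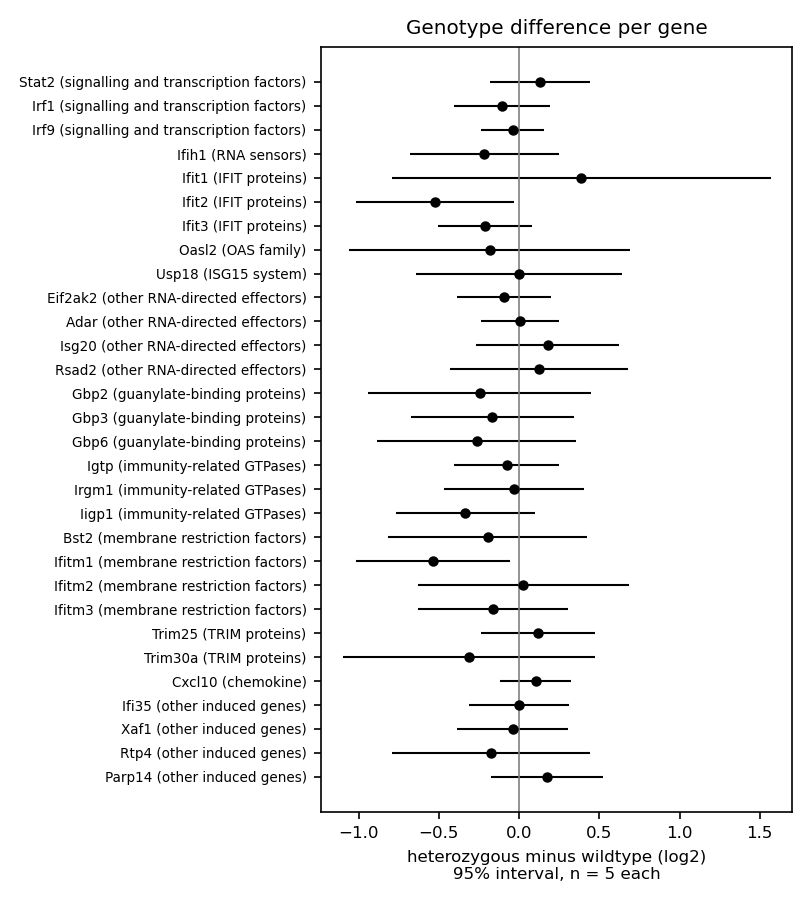
Difference between genotypes (heterozygous minus wildtype, log2, horizontal axis) for each of the 30 measured members, with 95% intervals from limma and 5 mice per genotype. Intervals leave out 0 for Ifit2 and Ifitm1 before adjustment, and 0 members passed after it.

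Among the membrane proteins, Ifitm1 encodes a protein that blocks virus entry at the cell surface. Its values were 6.85, 7.15, 5.94, 7.15 and 7.13 in heterozygous mice 1 to 5, against 7.34, 7.46, 7.26, 7.54 and 7.30 in wildtype mice 1 to 5. Every heterozygous mouse lay below every wildtype mouse, and heterozygous mouse 3 lay furthest down. The difference was -0.54 (95% interval -1.02 to -0.059, limma p 0.0311, adjusted p 0.9999, exact two-sided permutation p 0.00794, the smallest that 5 against 5 mice allow). Any groups of this size that do not overlap give that permutation p, so it adds nothing to the separation itself. Without heterozygous mouse 3 the difference was -0.31. In the related Ifitm3 and Ifitm2 the groups overlapped. Ifitm3, the endosomal member of the family, read 11.0, 11.48, 11.50, 11.71 and 11.08 in heterozygous mice 1 to 5, against 11.20, 12.15, 11.47, 11.69 and 11.07 in wildtype mice 1 to 5, with overlapping groups (-0.16, SE 0.21). Ifitm2, a further endosomal member, read 8.73, 9.31, 9.12, 9.03 and 8.77 in heterozygous mice, against 8.94, 9.71, 9.39, 8.98 and 7.82 in wildtype mice (0.024, SE 0.30), with wildtype mouse 5 the lowest of all. Bst2, which tethers budding virus to the cell, read 4.32, 5.00, 5.06, 5.75 and 5.72 in heterozygous mice, against 5.03, 5.33, 5.96, 5.48 and 5.03 in wildtype mice (-0.19, SE 0.28). Heterozygous mouse 1 was the lowest, and the groups overlapped.

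The IFIT proteins bind viral RNA and hold it from translation. Ifit2 read 5.66, 5.88, 5.65, 6.65 and 6.23 in heterozygous mice 1 to 5, against 6.17, 6.48, 6.30, 6.65 and 7.08 in wildtype mice 1 to 5. Heterozygous mice 1, 2 and 3 lay below all wildtype mice, and mice 4 and 5 lay within the wildtype range (-0.52, 95% interval -1.02 to -0.032, limma p 0.0391, adjusted p 0.9999, exact permutation p 0.0873). Ifit3 read 5.21, 5.84, 5.6, 5.91 and 5.80 in heterozygous mice, against 5.86, 5.81, 5.97, 5.79 and 6.0 in wildtype mice (-0.21, SE 0.13). Heterozygous mice 1 and 3 alone lay below the wildtype range. Ifit1 read 3.68, 6.09, 3.69, 5.99 and 5.07 in heterozygous mice, against 3.97, 5.56, 4.96, 3.98 and 4.11 in wildtype mice (0.39, SE 0.53). It had the widest range over the 10 mice of any measured member, 2.40, with its lowest readings in heterozygous mice 1 and 3 and its highest in heterozygous mice 2 and 4.

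Of the signalling genes, Stat2 and Irf9 encode parts of the complex that binds the ISRE. Stat2 read 4.37, 4.35, 4.37, 5.07 and 4.34 in heterozygous mice 1 to 5, against 4.43, 4.33, 4.37, 4.36 and 4.38 in wildtype mice 1 to 5. Heterozygous mouse 4 stood alone, and the other 9 readings lay close above the floor (0.13, SE 0.14). Irf9 read 5.88, 5.91, 5.91, 5.98 and 6.07 in heterozygous mice, against 5.93, 6.19, 6.02, 5.90 and 5.92 in wildtype mice, with a difference of -0.041 (95% interval -0.24 to 0.15). It had the narrowest range of the measured members, 0.31. Irf1, a transcription factor of the interferon gamma response, averaged 8.17 ± 0.25 in heterozygous and 8.28 ± 0.18 in wildtype islets (SD, n = 5 each).

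Among genes that act on RNA, Oasl2 read 6.01, 7.76, 6.23, 8.03 and 6.59 in heterozygous mice 1 to 5, against 6.38, 7.23, 7.47, 7.04 and 7.42 in wildtype mice 1 to 5 (-0.18, SE 0.40). Both the lowest and the highest readings were heterozygous. Rsad2, which encodes viperin, a radical enzyme that makes a chain-terminating nucleotide, read 8.31, 8.90, 8.25, 9.30 and 8.85 in heterozygous mice, against 8.42, 8.48, 8.19, 8.53 and 9.37 in wildtype mice (0.12, SE 0.25, with another of its probe sets at -0.076). Here wildtype mouse 5 and heterozygous mouse 4 stood highest. Adar, an RNA-editing enzyme gene that also has a promoter outside interferon control, read 8.22, 8.12, 8.21, 8.30 and 8.44 in heterozygous mice, against 8.22, 8.44, 8.16, 8.43 and 8.01 in wildtype mice (0.0054, 95% interval -0.24 to 0.25). Eif2ak2, the RNA-activated kinase PKR, stood at -0.094 (SE 0.13), and Isg20, an RNA exonuclease, at 0.18 (SE 0.20). The RNA sensor gene Ifih1 stood at -0.22 (SE 0.21), and Usp18, which removes ISG15 from proteins and dampens the receptor, at -0.00020 (95% interval -0.64 to 0.64).

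The guanylate-binding proteins and immunity-related GTPases, which take part in defence against intracellular microbes, were measured in 6 of 7 genes. Iigp1 read 6.44, 7.01, 6.41, 6.95 and 7.22 in heterozygous mice 1 to 5, against 7.17, 7.60, 7.18, 6.72 and 7.03 in wildtype mice 1 to 5 (-0.33, SE 0.20), with heterozygous mice 1 and 3 lowest. Gbp2, Gbp3 and Gbp6 stood at -0.25 (SE 0.31), -0.17 (SE 0.23) and -0.26 (SE 0.28), and Igtp and Irgm1 at -0.078 (SE 0.15) and -0.033 (SE 0.20). Second probe sets that passed the filter stood at -0.60 (SE 0.34) for Gbp2, -0.037 (SE 0.15) for Gbp6 and -0.17 (SE 0.22) for Iigp1. Cxcl10, a chemokine gene that draws activated T cells, stayed near the floor, at 4.22, 4.67, 4.51, 4.52 and 4.40 in heterozygous mice, against 4.42, 4.22, 4.34, 4.39 and 4.43 in wildtype mice (0.10, SE 0.10). The remaining members lay between -0.31 (Trim30a, SE 0.36) and 0.18 (Parp14, SE 0.16). Of the 9 measured members with several probe sets above the floor, 3 (Ifi35, Rsad2 and Trim30a) had probe sets that differed in sign.

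The members varied together from mouse to mouse. An interferon score was taken as the mean over the 30 members of the log2 value minus the gene's own mean over the 10 mice. It was -0.37, 0.16, -0.46, 0.36 and 0.083 in heterozygous mice 1 to 5, against -0.11, 0.11, 0.14, -0.049 and 0.13 in wildtype mice 1 to 5. Heterozygous mice 1 and 3 lay below all wildtype mice and heterozygous mice 2 and 4 above them, so that the heterozygous mean of -0.045 ± 0.35 and the wildtype mean of 0.045 ± 0.12 (SD, n = 5 each) differed by less than the spread among heterozygous mice.

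**Figure D2:**
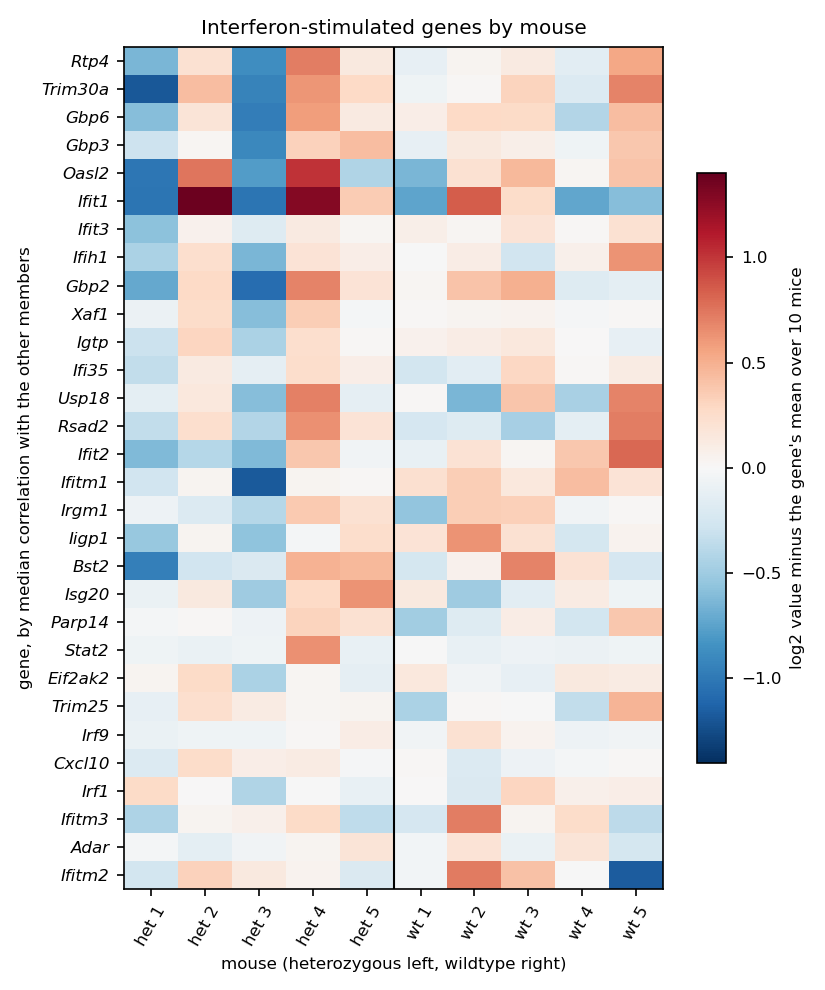
Log2 value of each measured member minus its mean over the 10 mice (colour), by mouse (columns, heterozygous left, wildtype right) and gene (30 rows, in the order of their median correlation with the other members). Heterozygous mice 1 and 3 are low in most rows and heterozygous mouse 4 is high in most.

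Counted by gene, heterozygous mouse 3 had the lowest of the 10 readings in 12 members and heterozygous mouse 1 in 8, where these mice held the lowest reading in 17.4% and 4.31% of all probe sets. Heterozygous mouse 1 lay below a member's own mean in 28 of 30 members and heterozygous mouse 3 in 26, where these mice lay above the mean in 53.9% and 38.4% of all probe sets. Heterozygous mouse 4 lay above it in 28 of 30 and held the highest reading in 8, where it lay above the mean in 50.1% of all probe sets and held the highest in 7.65%. Wildtype mouse 5 held the highest reading in 7 members, Ifit2 and Rsad2 among them, where it held the highest in 9.12% of all probe sets.

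The spread was wider among heterozygous mice in 21 of 30 members, against 51.9% of all probe sets, and by over 1.5 times in 16 members, against 28.5%. The median ratio of the heterozygous to the wildtype SD was 1.57 over members and 1.03 over all probe sets. Xaf1, a gene of apoptosis control, showed it in its brighter probe set. That probe set read 6.89, 7.24, 6.39, 7.33 and 6.95 in heterozygous mice 1 to 5, against 6.99, 7.02, 7.02, 6.97 and 7.0 in wildtype mice 1 to 5, so that all wildtype readings fell inside the heterozygous ones. A second Xaf1 probe set, left out as dim, had the opposite spread. Its SD was 0.051 among heterozygous and 1.48 among wildtype mice, with wildtype mouse 1 alone high at 6.75. Xaf1, Rtp4, Trim30a and the Gbp genes are described here after their values were seen. Trim25, an activator of RNA sensing, and Ifitm2 went the other way, with SDs of 0.12 and 0.24 among heterozygous against 0.36 and 0.71 among wildtype mice. The wider heterozygous spread remained when heterozygous mouse 1 or 3 was left out alone. Without mouse 1 it held in 20 of 30 members with a median ratio of 1.28, against 54.5% and 1.08 over all probe sets. Without mouse 3 it held in 19 with a ratio of 1.25, against 48.3% and 0.972. Without both, a choice made for their low values, it held in 10 of 30 with a ratio of 0.772, against 49.98% and 0.9997. Leaving out mice for their low values narrows the SD in itself, so the last count cannot show what the spread rested on. Whether the spreads differ between genotypes was not tested.

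**Figure D3:**
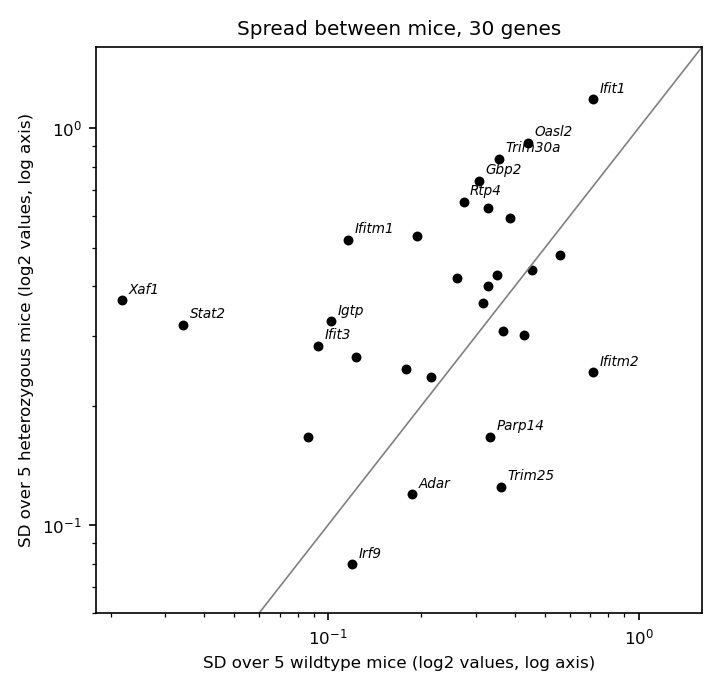
SD over 5 heterozygous mice (vertical) against SD over 5 wildtype mice (horizontal), both of log2 values on log axes, for the 30 measured members, with the line of equal SDs. Of the 30 points, 21 lie above the line, Xaf1 and Stat2 furthest, and Ifitm2 and Trim25 lie well below it.

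With each gene centred within its genotype, the median Pearson r over the 435 pairs of measured members was 0.434, against 0.054 over pairs of all 10538 genes, and 376 pairs (86.4%) were positive, against 54.6%. All pairs share the same 10 mice, so these values describe the arrays and carry no p. The closest pairs were Rtp4 with Trim30a (0.953), Rtp4 with Gbp6 (0.946) and Rsad2 with Ifih1 (0.941). Rtp4, which encodes a chaperone of receptors and an RNA-binding antiviral protein, followed the rest most closely, with a median r of 0.685 to the other 29. It read 6.57, 7.41, 6.33, 7.92 and 7.34 in heterozygous mice 1 to 5, against 7.09, 7.24, 7.33, 7.06 and 7.74 in wildtype mice 1 to 5. Next came Trim30a (0.643), Gbp6 (0.643), Gbp3 (0.636), Oasl2 (0.571) and Ifit1 (0.566). At the other end stood Irf1 (0.101), Ifitm3 (0.089), Adar (-0.00049) and Ifitm2 (-0.017), and the lowest pair was Usp18 with Adar (-0.600). Ifitm2 and Ifitm3 followed each other (0.76), with wildtype mouse 2 highest in both.

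**Figure D4:**
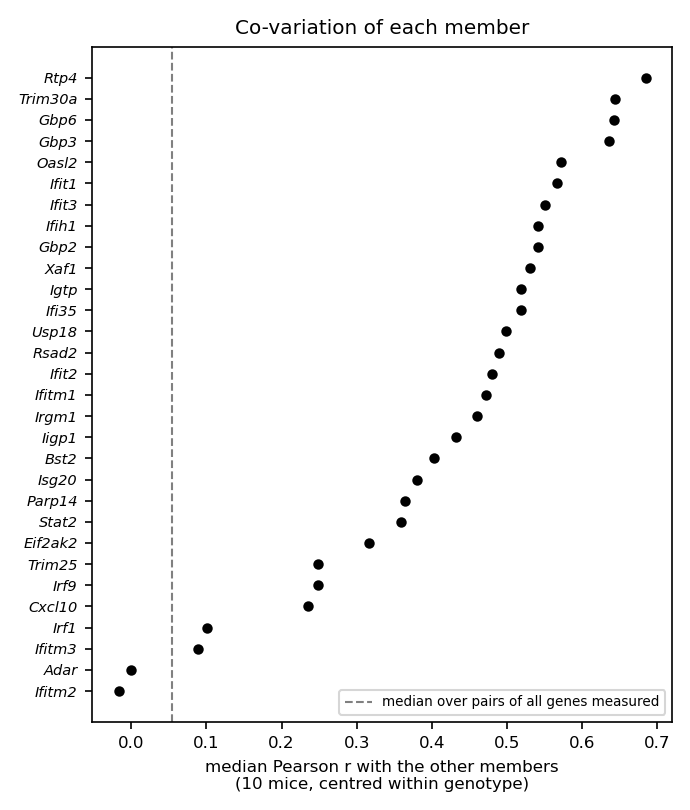
Median Pearson r of each measured member with the other 29 (horizontal axis, 10 mice, each gene centred within its genotype), with the median over pairs of all measured genes as a dashed line at 0.054. Of the 30 members, 28 lie right of the line, from Ifitm3 at 0.089 to Rtp4 at 0.685, and Adar and Ifitm2 lie left of it.

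The 15 measured members with an ISRE core in the window had a median r of 0.490, and the 10 with an entry but no such core, among them Oasl2 and Xaf1, had 0.427. For the GAS core the medians were 0.381 in the 9 members with it and 0.510 in the 16 without it, and neither difference was tested. Without heterozygous mice 1 and 3 together the median r over member pairs was 0.112, against 0.045 over all genes, and without heterozygous mice 2 and 5 it was 0.451.

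Of 52 interferon-stimulated genes listed outside the 42, 29 were measured. Their list mean was 7.0, 7.50, 6.93, 7.45 and 7.42 in heterozygous mice 1 to 5, against 7.22, 7.19, 7.39, 7.21 and 7.43 in wildtype mice 1 to 5, with heterozygous mice 1 and 3 again below the rest. In 25 of the 29 the median r with the members was above 0, Shisa5 (0.673), Irgm2 (0.606) and Ifi27l2a (0.604) being highest. In 12 the mean was higher and in 17 lower in heterozygous islets, 0 passed the adjusted threshold, and Dtx3l, a ubiquitin ligase gene (0.30, SE 0.11), and Cmpk2, a mitochondrial nucleotide kinase gene (0.35, SE 0.18), had the smallest p. The median difference over these 29 was -0.060. The SD was larger among heterozygous mice in 16 of the 29, a share near that of all probe sets.

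Markers of other cells moved with the score to differing extents. In macrophage and myeloid cells, 9 of 14 listed genes were measured, with a list mean of 6.51, 7.05, 6.39, 7.23 and 7.17 in heterozygous mice 1 to 5, against 7.11, 7.23, 7.43, 7.11 and 7.08 in wildtype mice 1 to 5, and heterozygous mice 1 and 3 were the lowest. Among them Lyz2, the lysozyme gene of macrophages, read 5.80, 8.44, 6.21, 7.78 and 8.52 in heterozygous mice, against 7.83, 7.72, 8.29, 7.54 and 8.27 in wildtype mice. The median r of the 9 genes with the members ran from 0.016 (Aif1) and 0.128 (C1qa) to 0.601 (Lyz2) and 0.618 (Csf1r). Of the listed markers, Adgre1, Csf1r, C1qa and C1qb passed the filter. Cd68, C1qc, Itgam, Fcgr1 and Tyrobp did not, with readings of up to 3.73 in heterozygous and 4.24 in wildtype mice. With the myeloid mean regressed out of every gene within genotype, a step added after seeing the data, the median r over member pairs was 0.094, against 0.032 over all genes. Of the 9 genes 7 were lower in heterozygous islets, against 43.6% of all probe sets. An unadjusted p under 0.05 was found in 3, against 4.09% of all probe sets, and 0 passed after adjustment. The smallest p were those of the lipopolysaccharide co-receptor gene Cd14 (-0.64, SE 0.20) and the mannose receptor gene Mrc1 (-0.93, SE 0.31). The regressed myeloid mean was lowest in heterozygous mice 1 and 3, and leaving those mice out also lowered the median r. That step therefore cannot single out myeloid RNA, whose part in the members' values was not tested.

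The stromal list (12 of 13 measured) ran from 8.55 to 10.07 in heterozygous and from 9.41 to 10.05 in wildtype mice. It was lowest in heterozygous mouse 3 and highest in heterozygous mouse 4, as was the score. Its 12 genes were all lower in heterozygous islets, against 43.6% of all probe sets. Of them 7 had an unadjusted p under 0.05, against 4.09% of all probe sets, and 0 passed after adjustment. This direction was not particular to the stromal list. Lower too were 12 of 13 endothelial, 6 of 6 duct, 10 of 10 acinar and 8 of 10 endocrine genes, while 4 of 5 B cell genes were higher. The sizes differed. The median difference was -0.72 over stromal, -0.33 over endothelial and -0.40 over duct genes. It was only -0.045 over acinar and -0.037 over endocrine genes. With the stromal mean regressed out the median r over member pairs was 0.278, against 0.046 over all genes. The regressions in this paragraph were, like the myeloid step, added after seeing the data. The endothelial list (13 of 14 measured) ran from 6.90 to 7.44 in heterozygous and from 7.22 to 7.89 in wildtype mice. The median r with it regressed out was 0.377, against 0.021 over all genes. Col3a1 (-1.08, SE 0.31), Dcn (-0.64, SE 0.19), Esam (-0.53, SE 0.17) and Egfl7 (-0.61, SE 0.24) had the smallest p of these lists. The B cell list (5 of 12 measured) was high in heterozygous mice 2 and 5, at 6.45 and 5.96, and lay between 4.11 and 4.37 in the other heterozygous and between 4.23 and 4.98 in wildtype mice. With it regressed out the median r was 0.427, against 0.061 over all genes. Its smallest p were those of Cd22 (0.90, SE 0.46) and Ms4a1 (1.03, SE 0.66). Of the T cell list only Thy1, also a stromal gene, was measured of 12, and the CD3 genes did not pass the filter.

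Siglech and Ly6d, which define plasmacytoid dendritic cells, the main makers of type I interferon, read 2.02 to 2.41 over all arrays. The other genes of that list, with Ccr9 (0.066, SE 0.12) and Cox6a2 (-0.23, SE 0.41) first by p, include Klk1, which the exocrine pancreas also makes. The acinar list (10 of 12 measured) averaged 15.43 ± 0.21 in heterozygous and 15.53 ± 0.17 in wildtype islets (SD, n = 5 each), with Ctrc (-0.63, SE 0.61) and Reg1 (-0.046, SE 0.078) first by p. The duct list (6 of 9) averaged 8.48 ± 0.25 and 8.85 ± 0.28 in heterozygous and wildtype islets, with Aqp1 (-0.63, SE 0.27) and Anxa1 (-0.74, SE 0.34) first, and in the endocrine list Gcg (-0.085, SE 0.078) and G6pc2 (-0.18, SE 0.24) were. The 3' minus 5' difference of the Gapdh control probe sets, a sign of RNA quality, ran from 3.24 to 3.70 in heterozygous and from 3.32 to 3.46 in wildtype arrays, highest in heterozygous mouse 3. In heterozygous mouse 1 it was 3.49. The same difference for beta-actin was highest in heterozygous mouse 4, at 3.65. Their part in the score was not tested.

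**Figure D5:**
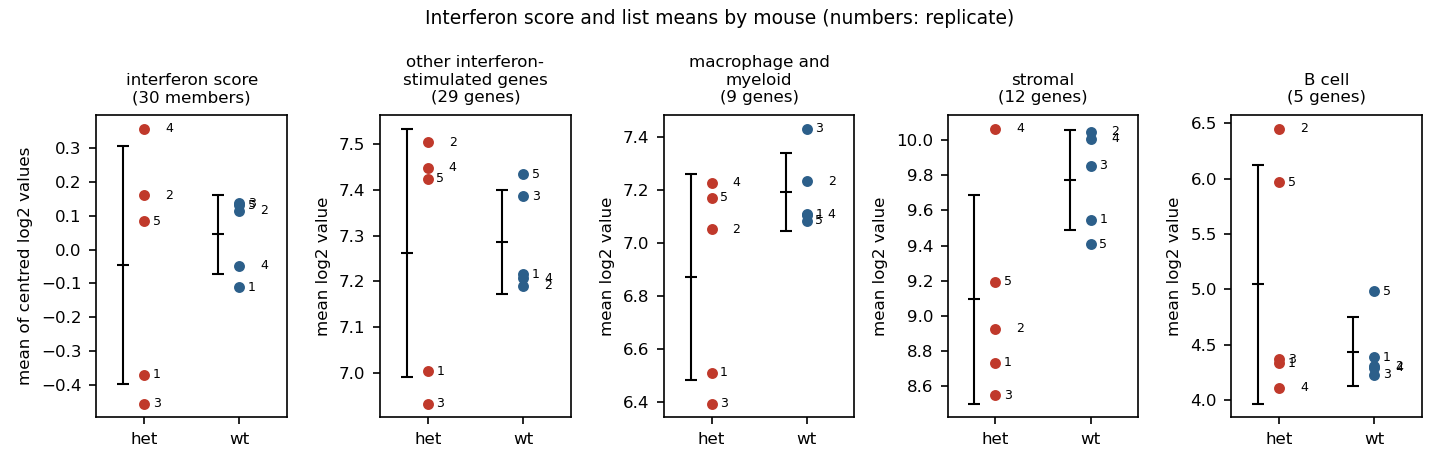
Interferon score (left) and mean log2 value of 4 gene lists by mouse, heterozygous left and wildtype right in each panel, with replicate numbers beside the points and bars for the mean ± SD (n = 5 each). Heterozygous mice 1 and 3 are lowest in the score, the other interferon-stimulated genes and the myeloid list, while the B cell list is high in heterozygous mice 2 and 5.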

How the data were processed

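Expression was measured on 10 arrays, 1 per mouse. The deposited log2 values were made by the authors with GCRMA, per the submitters' processing notes, which corrects background by probe sequence, normalizes arrays and summarises probe sets, and which draws dim probe sets together near the bottom of the scale. The scale was read from the deposited values, and no label gives the version. After 64 control probe sets were left out, 18567 of 45037 probe sets lay above 4 on at least 5 arrays. Array medians ran from 3.28 to 3.40. The number of arrays limits the precision. Heterozygous minus wildtype was fitted with limma 3.58.1 (lmFit, eBayes, R 4.3.3) over all of these probe sets, two-sided, with Benjamini-Hochberg adjustment and a threshold of 0.05. The fit was tested on simulated data. A gene was represented by its probe set of highest mean. Symbols come from the platform annotation table, and promoters from RefSeq (GRCm38.p6).

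The members and lists were chosen with earlier results of these data known. Values per mouse are given for members whose groups do not overlap, with an unadjusted p under 0.05, with an array far from its group, with the 3 widest or narrowest ranges, and for 12 genes fixed by name. From each other list the 2 genes with the smallest p are named, where 2 were measured, and other genes named were picked after their values were seen. Alternatives changed the filter, normalization, variance prior, array weights, replicate block, arrays, B cell covariate, threshold and the probe set rule. Python 3.11.15 with matplotlib 3.10.9 was used for descriptions and figures.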

Additional observations from a re-analysis of the deposited data

Results flagged for a closer look

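Over all 62 probe sets of the members, above the filter or not, 15 (in 13 genes) had a single array far from the other 4 of its genotype, 9 among heterozygous and 6 among wildtype mice, with a gap to the nearest of them above Dixon's 95% critical value as a share of the group's range. The 5 given here are those of probe sets whose values the text describes and 1 of Xaf1. The other 10 are dim or second probe sets of Oasl1, Oas2, Ddx58, Dhx58, Trim25, Gbp6, Eif2ak2 and Adar. Chance flags about 1 in 20 groups of independent normal values, and among all probe sets 10.9% of heterozygous and 10.2% of wildtype groups passed the same rule. Heterozygous mouse 4 read 5.07 for Stat2, with the next heterozygous mouse at 4.37. Heterozygous mouse 3 read 5.94 for Ifitm1, with the next at 6.85. Wildtype mouse 5 read 9.37 for Rsad2, with the next wildtype mouse at 8.53. Heterozygous mouse 2 read 3.84 for Irf7, below the floor, with the next at 3.29. A second probe set of Xaf1, left out of the comparison as dim, read 6.75 in wildtype mouse 1 and at most 3.55 in the other wildtype mice.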

How the results depend on the processing

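With 0 probe sets and 0 members called by limma, no alternative ended a call or made one, the lowest member adjusted p being 0.568 (without heterozygous mouse 4); 599 to 1097 probe sets had an unadjusted p under 0.05. The mean over all probe sets of a gene was not run as a test. The replicate number pairs no mice by the labels, and same-numbered arrays correlated at -0.28 to 0.11 in their deviations. The replicate block called 0 probe sets and 0 members. It moved SEs either way, from 0.223 to 0.141 for Ifit2 and from 0.133 to 0.139 for Ifit3. Being balanced over genotypes, it cannot change a difference, so the median member difference stayed at -0.086. Leaving out single arrays, that median ran from -0.14 to 0.012, and the difference ran from -0.056 to 0.053 for Adar, -0.34 to 0.019 for Bst2, 0.092 to 0.69 for Ifit1, -0.26 to 0.21 for Ifitm2, -0.072 to 0.0079 for Irf9, -0.46 to 0.046 for Oasl2, -0.021 to 0.32 for Rsad2 and -0.015 to 0.17 for Stat2. Adar turned to -0.0044 after quantile normalization, -0.0086 after median centring, -0.036 with array weights and -0.0088 without heterozygous mice 2 and 5. Ifitm2 turned to -0.030 with array weights and -0.0080 without heterozygous mice 2 and 5, and Ifit1 to -0.061 there. For these reversals the cause was not tested. Co-variation ran from 0.349 to 0.482 over single arrays left out. It was 0.112 without heterozygous mice 1 and 3 and 0.094 with the myeloid mean regressed out. Both steps, and the regressions on the stromal, endothelial and B cell means, were added after seeing the data. Readings near the floor of 4, as for Stat2, Cxcl10 and Ifit1, are compressed and limit what differences can show.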
